A study of Mus musculus with 22 samples.

Results

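The 10 genes described here encode neuronal and tissue-regulated splicing regulators, RNA-binding proteins that choose between alternative exons. They were taken by symbol (Rbfox2, Rbfox3, Nova2, Mbnl1, Mbnl2, Celf1, Celf2, Elavl3, Elavl4 and Ptbp2), and all 10 were found among the 15705 genes of the 6-month table and among the 15192 genes of the 12-month table. Each value is an Sd score, a ratio for a gene in a library. It was read as a measure of splicing deficiency that grows with the unspliced signal. The scores of these genes measure neither the amount of their transcripts nor the splicing of the exons that their proteins regulate in other genes.

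The 22 libraries were stranded, made from poly(A) RNA of mouse cortex and sequenced from both ends. At 6 months there were 3 libraries each of dTg, N40K, 5xFAD and wild-type (WT) mice, all littermates from matings of N40K-Tg +/- with FAD +/- parents. The N40K transgene encodes a truncated, amino-terminal piece of U1-70K, one of the proteins of the U1 snRNP, the small RNA-protein particle that pairs with 5′ splice sites. 5xFAD mice carry mutant human amyloid precursor and presenilin transgenes and form amyloid plaques, and in dTg mice the N40K and the 5xFAD transgenes are combined. At 12 months there were 6 libraries of Tau P301S mice, whose transgene encodes a mutant human tau, and 4 of WT littermates, from matings of Tau P301S +/- with WT parents. The sources used here do not give the promoter of any transgene or the strain or sex of the mice, and the labels do not say that each library came from a separate mouse, so the p-values measure the spread between these libraries.

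Splicing regulators of this kind bind short RNA words near alternative exons and promote or block their inclusion, and many of them also control exons in their own transcripts. Rbfox proteins bind the word UGCAUG, and Rbfox3 is the antigen NeuN, widely used to mark neuronal nuclei. Nova2 binds clusters of a pyrimidine, CA and a pyrimidine, muscleblind proteins (Mbnl1 and Mbnl2) bind words with a GC between pyrimidines and are sequestered by repeat RNA in myotonic dystrophy, and CELF proteins bind GU-rich RNA and often oppose muscleblind proteins. The neuronal Hu proteins Elavl3 and Elavl4 bind U-rich RNA, and Ptbp2 is the neuronal paralogue that replaces Ptbp1 as neurons differentiate.

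Libraries differed in their overall level. The median score over all genes was 0.03 to 0.035 in dTg, 0.031 to 0.036 in N40K, 0.029 to 0.031 in 5xFAD and 0.029 to 0.03 in WT libraries at 6 months, with the highest medians in N40K replicate 1 and dTg replicate 2. At 12 months it was 0.014 to 0.016 in Tau P301S and 0.013 to 0.017 in WT libraries, where WT replicates 3 and 4 (0.017 each) stood above WT replicates 1 and 2 (0.013 each). Read depth was not given, so no counting interval can be set on a score. In bulk cortex fewer cells of a type and less RNA per cell cannot be told apart. The tissue label could not be checked against expression: 4 of 5 neuronal, 4 of 8 microglial, 6 of 6 astrocyte, 4 of 6 oligodendrocyte and 3 of 5 endothelial markers were scored at 6 months, and 4 of 5, 8 of 8, 5 of 6, 6 of 6 and 4 of 5 at 12 months, which shows only that they had a score. The part of other cell types in the results below was not tested.

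Most of the regulators had low scores. At 6 months 9 of 10 lay below the 50th percentile of all genes, 7 of 10 had a mean score under 0.01, and the scores are deposited in steps of 0.001, so that a difference of 1 step was a sizeable part of most values. Elavl3 was highest, with a mean over the 12 libraries of 0.0384 (55th percentile), followed by Nova2 (0.0183) and Ptbp2 (0.0151). Mbnl1 (0.00775), Rbfox2 (0.00583), Mbnl2 (0.00575), Celf1 (0.00533) and Celf2 (0.00458) lay close together. Elavl4 (0.00308) and Rbfox3 (0.00117, below the 2nd percentile) were lowest. Elavl3 did not overlap Nova2 in any library and Ptbp2 did not overlap Mbnl1, while the other neighbours in this order met or overlapped in their ranges. Rbfox3 stood at 0.001 in 10 of 12 libraries, so its score could hardly show a decrease.

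At 6 months the order of the levels went with gene structure. In the GENCODE M21 annotation the intronic length was 943.986 kb in Celf2, 416.018 kb in Rbfox3 and 219.875 kb in Rbfox2. It was 144.036 kb in Mbnl2, 142.801 kb in Elavl4, 138.204 kb in Mbnl1 and 70.67 kb in Celf1, against 56.55 kb in Ptbp2, 31.06 kb in Nova2 and 30.129 kb in Elavl3. The 3 regulators with the least intronic sequence in all were therefore the 3 with the highest scores, and 6 of the 10 fell in the decile of genes with the most. The length of single introns was not read. Over the 14823 genes with an annotated intronic length, score and intronic length were inversely related (Spearman's rho = −0.62 across genes, which are not independent replicates), and whether the score is scaled by length was not given. Compared with genes in the same decile of intronic length, 6 regulators lay above the median score and 4 below. Celf1 (17th percentile of its decile) and Rbfox3 (13th) were the lowest for their length, and Elavl3 (72nd) and Mbnl1 (70th) the highest.

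**Figure D1:**
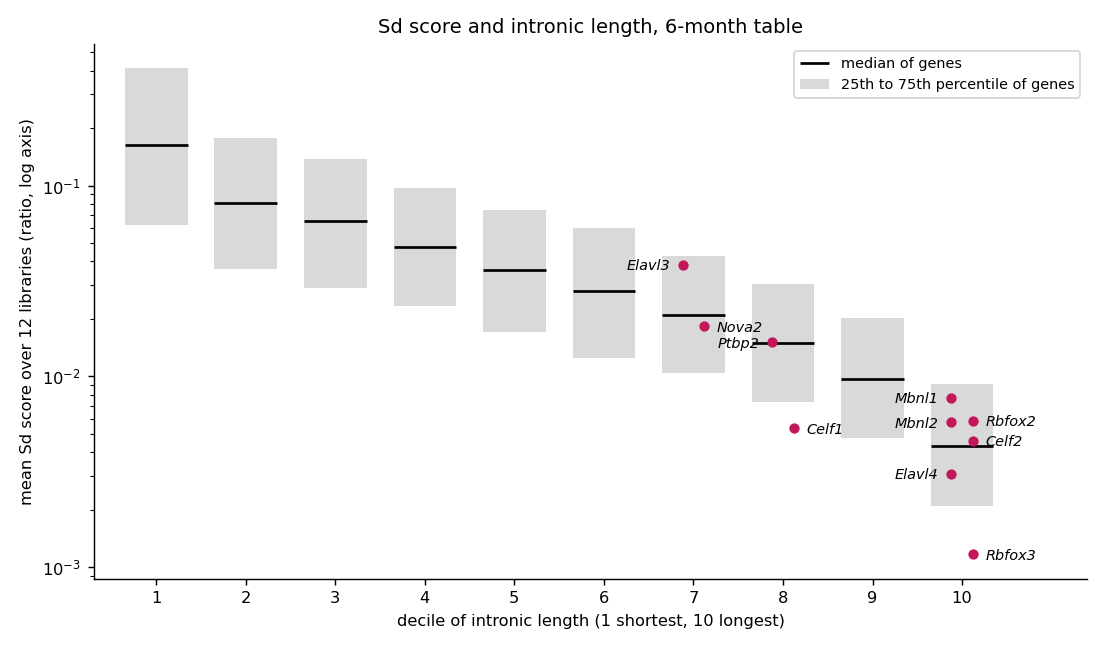
Mean Sd score over the 12 libraries at 6 months (vertical, log axis, a ratio) by decile of intronic length (horizontal, from 1, the shortest, to 10, the longest), with grey bars from the 25th to the 75th percentile of genes, black lines at the median and red points for the 10 regulators. The median falls from 0.164 in the shortest to 0.00433 in the longest decile, and all 10 regulators lie in decile 7 or above, with Celf1 and Rbfox3 below the grey bars.

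The first comparison asked whether the scores of these regulators differed in mice with the truncated U1-70K fragment. It set the 6 N40K carriers (dTg and N40K) against the 6 non-carriers (5xFAD and WT), as the mean of the differences within each amyloid background. Of the 10 regulators 1 passed the test, Rbfox2, which fell, and none rose (limma, adjusted p under 0.05 over all 15705 genes). Over all genes 11.7% passed, 10.8% higher and 0.936% lower, so the share among the regulators was near the background. At an unadjusted p under 0.05 there were 4 of 10, against 29.1% of all genes. The changes of the 10 ran from 0.882-fold to 1.3-fold, with a median of 0.13 on the log2 scale against 0.09 over all genes, and in none of the 10 were the carriers separated from the non-carriers, as they were in 5.51% of all genes.

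Rbfox2 (ENSMUSG00000033565) stood at 0.006, 0.005 and 0.006 in dTg and at 0.005 in all 3 N40K libraries, against 0.007 in all 3 5xFAD libraries and 0.006, 0.005 and 0.006 in WT libraries. The 5xFAD libraries were highest and the N40K libraries lowest, while dTg and WT libraries held the same values. The averaged difference therefore came down to the N40K and the 5xFAD libraries. Rbfox2 averaged 0.00533 ± 0.000516 in carriers and 0.00633 ± 0.000816 in non-carriers (SD, n = 6 each), a log2 change of −0.18 ± 0.05 (SE, 0.882-fold, 95% interval 0.82 to 0.949-fold, limma adjusted p = 0.0387). The difference of the means was −0.001, a single step of the last decimal, and rounding alone allows −0.002 to 0. The SD was 0 in the N40K and in the 5xFAD libraries. Rounding hid their spread, so the SE and the interval may be too small. The call was lost in 9 of the 12 fits that left out a library, at adjusted p from 0.0587 to 0.0839. These left out WT replicate 1 or 3, any of the N40K or 5xFAD replicates or dTg replicate 2, and the call was also lost without both libraries of highest median (adjusted p = 0.101).

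The Nova protein gene and the Hu protein gene with the highest scores had higher means in carriers and missed the threshold. Nova2 (ENSMUSG00000030411) had 0.017, 0.025 and 0.02 in dTg and 0.026, 0.018 and 0.02 in N40K libraries, against 0.016, 0.018 and 0.015 in 5xFAD and 0.018, 0.014 and 0.013 in WT libraries. The carriers covered 0.017 to 0.026 and the non-carriers 0.013 to 0.018, so the ranges met at 0.017 to 0.018. Nova2 averaged 0.021 ± 0.00369 in carriers and 0.0157 ± 0.00207 in non-carriers (SD, n = 6 each, 1.3-fold, log2 change 0.37 ± 0.12 SE, limma adjusted p = 0.0727).

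Elavl3 (ENSMUSG00000003410) had 0.037, 0.047 and 0.045 in dTg and 0.052, 0.036 and 0.04 in N40K libraries, against 0.035, 0.033 and 0.037 in 5xFAD and 0.032, 0.031 and 0.036 in WT libraries. Its carriers lay at or above 0.036 and its non-carriers at or below 0.037. Elavl3 averaged 0.0428 ± 0.00624 in carriers and 0.034 ± 0.00237 in non-carriers (1.24-fold, log2 change 0.31 ± 0.09 SE, limma adjusted p = 0.0649). Elavl3 passed without N40K replicate 2 (adjusted p = 0.038) and without dTg replicate 1 (0.0382), and Nova2 passed without dTg replicate 1 (0.0451), so that 3 regulators were called without that library. Without both libraries of highest median, none was.

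The remaining 7 regulators missed the threshold too. Ptbp2 (ENSMUSG00000028134) had 0.016, 0.019 and 0.014 in dTg and 0.017, 0.018 and 0.015 in N40K libraries, against 0.016, 0.012 and 0.014 in 5xFAD and 0.011, 0.014 and 0.015 in WT libraries, with carriers and non-carriers overlapping from 0.014 to 0.016. Ptbp2, with 0.0165 ± 0.00187 in carriers and 0.0137 ± 0.00186 in non-carriers (SD, n = 6 each), had a log2 change of 0.24 (limma adjusted p = 0.137). Elavl4 (ENSMUSG00000028546), the neuronal Hu protein HuD, ranged from 0.003 to 0.005 in carriers and from 0.002 to 0.003 in non-carriers, with a log2 change of 0.23.

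The muscleblind, CELF and Rbfox3 genes had scores within a few steps of each other on both sides. Mbnl1 (ENSMUSG00000027763) ranged from 0.007 to 0.01 in carriers and from 0.007 to 0.008 in non-carriers (log2 change 0.12), and Mbnl2 from 0.005 to 0.006 in carriers and from 0.005 to 0.007 in non-carriers (0.04). Celf1 (ENSMUSG00000005506) stood at 0.005 in all 6 carriers and ranged from 0.005 to 0.007 in non-carriers (log2 change −0.12, limma adjusted p = 0.206). Celf2 (ENSMUSG00000002107) ranged from 0.004 to 0.005 on both sides (0.04), and Rbfox3 (ENSMUSG00000025576) stood above 0.001 only in N40K replicate 1 and dTg replicate 2, at 0.002 (0.14). In all 7 regulators with a mean under 0.01 the carrier and non-carrier means lay no more than 1 step of 0.001 apart. In 7 of the 10 regulators the highest 6-month score, ties counted, lay in N40K replicate 1 or in dTg replicate 2, the libraries with the highest median over all genes, and the part of this in the changes was not tested beyond leaving them out. Celf2 is among them, with its highest score tied across libraries of all groups. The share over all genes was not counted, so nothing particular to the regulators can be read from this count.

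The general shift of the libraries bore on the direction of several regulators. Centring each library on its own median lowered each change by 0.14 on the log2 scale. Nova2 (1.18-fold), Elavl3 (1.13-fold), Ptbp2 (1.08-fold) and Elavl4 (1.07-fold) then stayed above 1-fold, Rbfox3 stood at no change, and Mbnl1, Mbnl2 and Celf2, above it as fitted, turned below it. Rbfox2 (0.803-fold, limma adjusted p = 0.0309) passed and Celf1 (0.835-fold, limma adjusted p = 0.0578) did not. After centring 5 regulators lay above and 5 below 0, with a median of −0.01 against −0.04 over all genes.

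**Figure D2:**
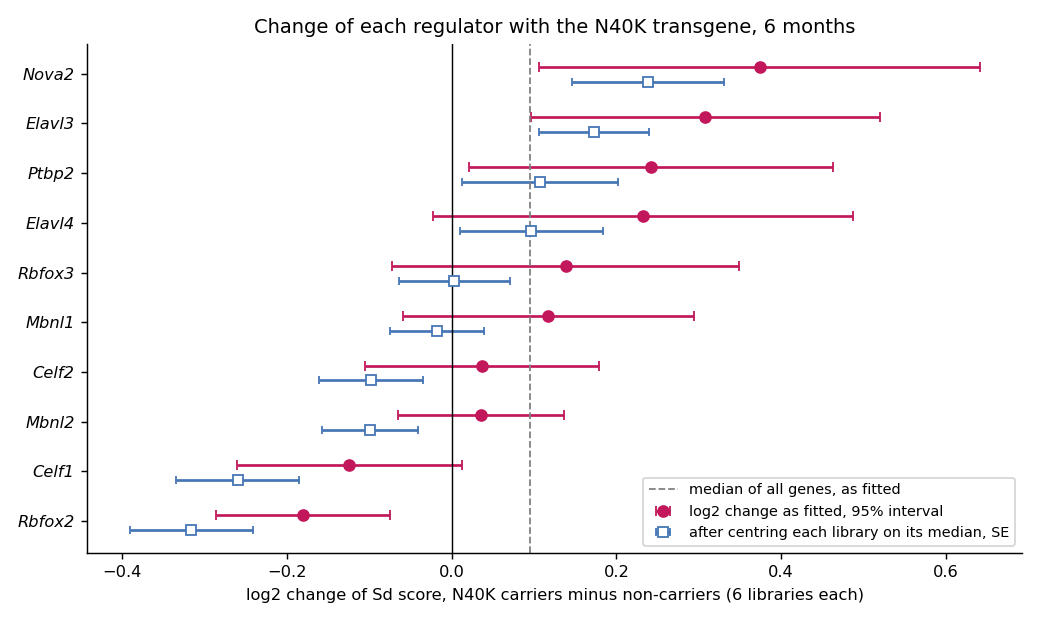
log2 change of the Sd score (horizontal) of each regulator (vertical), N40K carriers minus non-carriers, 6 libraries each. Red points are the changes as fitted with 95% intervals, blue squares those after centring each library on its median with their SE, and the dashed line is the median of all genes as fitted (0.09). Nova2 (0.37) and Elavl3 (0.31) stand highest and Rbfox2 (−0.18) lowest, and centring moves Mbnl1, Mbnl2 and Celf2 to the left of 0.

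**Figure D3:**
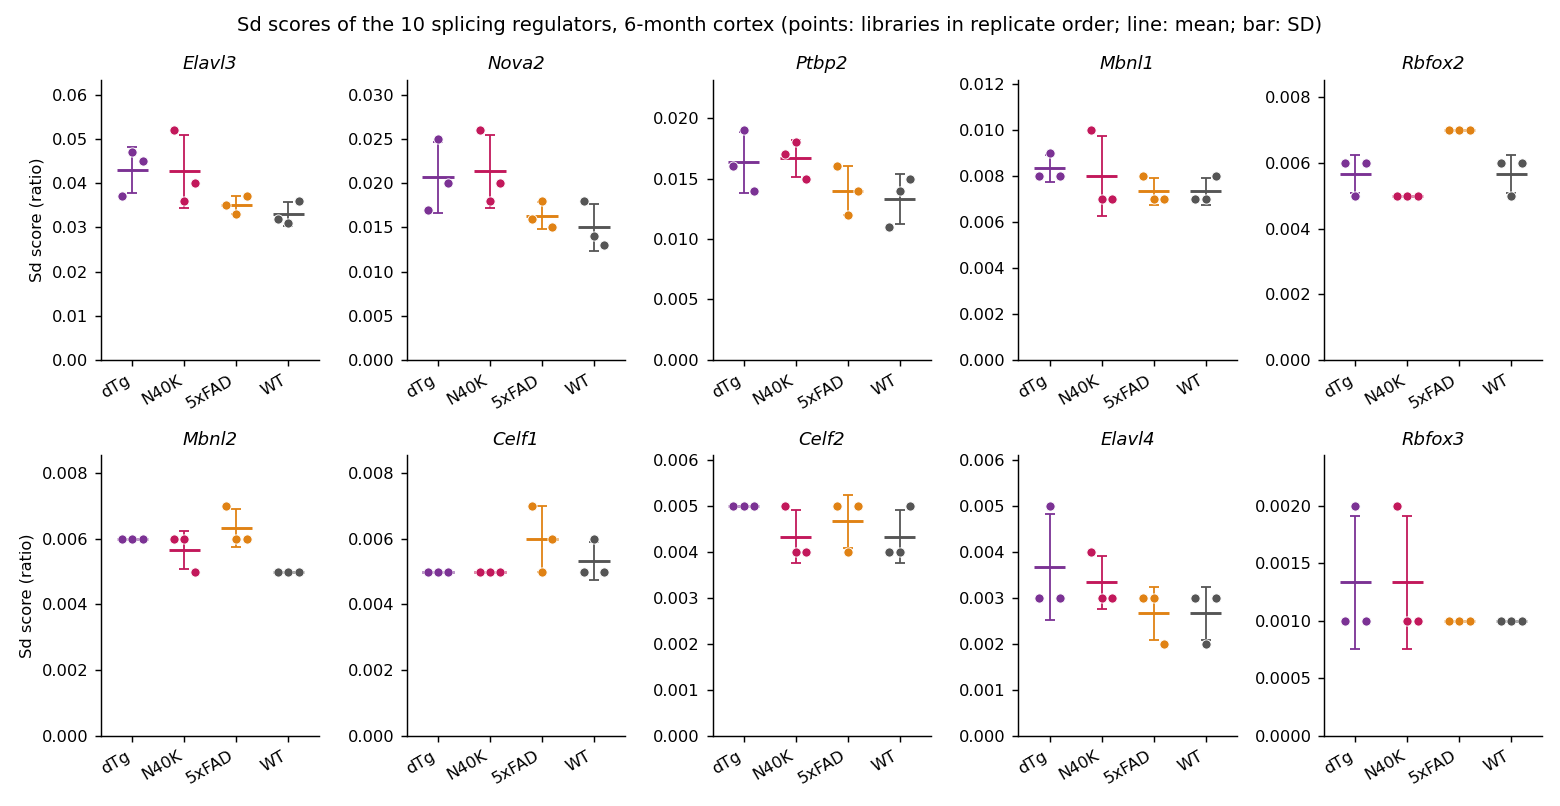
Sd score (vertical, a ratio, from 0) of each regulator in the 6-month libraries of dTg, N40K, 5xFAD and WT mice, with points for libraries, lines for means and bars for the SD (n = 3 each). Elavl3, Nova2 and Ptbp2 have higher means in dTg and N40K than in 5xFAD and WT libraries with overlapping points, Rbfox2 stands at 0.007 in all 5xFAD libraries, and the 7 regulators with means under 0.01 hold values at most 3 steps apart.

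Both parts of this comparison were also read on their own, with 3 libraries a side. In N40K minus WT, none of the 10 regulators passed (limma; 0.178% of all genes did), and 2 of 10 had an unadjusted p under 0.05, against 18.9% of all genes. The changes of the 10 ran from 0.915-fold (Rbfox2) to 1.37-fold (Nova2). The 2 with an unadjusted p under 0.05 were Nova2, with a mean of 0.0213 ± 0.00416 in N40K and 0.015 ± 0.00265 in WT libraries (log2 change 0.45 ± 0.17 SE, limma adjusted p = 0.19), and Elavl3, with 0.0427 ± 0.00833 in N40K and 0.033 ± 0.00265 in WT libraries (SD, n = 3 each, log2 change 0.34, limma adjusted p = 0.212). In dTg minus 5xFAD none passed (limma; 0.312% of all genes did), and Rbfox2 alone had an unadjusted p under 0.05, against 18.0% of all genes. Its libraries did not overlap, as in 16.7% of all genes (0.005 to 0.006 in dTg, 0.007 in 5xFAD, log2 change −0.23 ± 0.07 SE, limma adjusted p = 0.126). None of the 10 passed the interaction test, which asks whether the N40K difference itself differed with 5xFAD status (limma, adjusted p = 1 for each, 0 of 10 at an unadjusted p under 0.05 against 2.87% of all genes, 0.0191% of all genes passing). The largest interaction in size was that of Mbnl2, at −0.19 ± 0.09 on the log2 scale (SE).

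With both sets of transgenes together, dTg minus WT, none of the 10 passed (limma; 1.57% of all genes did) and 3 had an unadjusted p under 0.05, against 22.5% of all genes. Mbnl2 (ENSMUSG00000022139), the main muscleblind protein of the brain, stood at 0.006 in all dTg and at 0.005 in all WT libraries, a difference of 1 step without overlap (log2 change 0.19 ± 0.06 SE, limma adjusted p = 0.122), and rounding alone allows a difference of 0 to 0.002. Rounding also hid the spread of Mbnl2 within the dTg and the WT libraries. Elavl3 (0.043 ± 0.00529 in dTg and 0.033 ± 0.00265 in WT libraries, adjusted p = 0.157) and Nova2 (0.0207 ± 0.00404 in dTg and 0.015 ± 0.00265 in WT libraries, adjusted p = 0.19) were the other two (limma; SD, n = 3 each), and the Elavl3 libraries did not overlap either (0.037 to 0.047 in dTg, 0.031 to 0.036 in WT). Groups without overlap in this comparison were found in 21.8% of all genes. This comparison shares its WT libraries with N40K minus WT and its dTg libraries with dTg minus 5xFAD.

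The next comparisons asked for the effect of the amyloid transgenes. In 5xFAD minus WT none of the 10 regulators passed (limma; 0.0191% of all genes did), and Mbnl2 and Rbfox2 were the 2 with an unadjusted p under 0.05, against 4.39% of all genes. Mbnl2 had 0.007, 0.006 and 0.006 in 5xFAD libraries, against 0.005 in all WT libraries (log2 change 0.25 ± 0.06 SE, limma adjusted p = 0.715). Rbfox2 had 0.007 in all 5xFAD libraries, against 0.006, 0.005 and 0.006 in WT libraries (log2 change 0.23 ± 0.07 SE, limma adjusted p = 0.817). In both genes every 5xFAD library lay above every WT library, by 1 or 2 steps, and 6.16% of all genes had groups without overlap. In Elavl4, Rbfox3 and Mbnl1 the 5xFAD and WT means were the same, and the log2 changes of the remaining 5 ran from 0.06 (Ptbp2) to 0.12 (Celf1 and Nova2).

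In dTg minus N40K none passed (limma; 0.0191% of all genes did), none had an unadjusted p under 0.05 (5.14% of all genes), and the smallest adjusted p was that of Rbfox2 (0.985, log2 change 0.13 ± 0.07 SE). In all 10 regulators the dTg and the N40K mean lay within 1 step of 0.001. Averaged over N40K status, 5xFAD carriers (dTg and 5xFAD) were set against non-carriers (N40K and WT), and none passed (limma; 0.0446% of all genes did, and 2 of the 10 had an unadjusted p under 0.05, against 6.17% of all genes). Rbfox2 averaged 0.00633 ± 0.000816 in 5xFAD carriers and 0.00533 ± 0.000516 in non-carriers (SD, n = 6 each, log2 change 0.18 ± 0.05 SE, limma adjusted p = 0.407), the same size and unadjusted p (0.00363) as its N40K difference and the opposite direction. Since the dTg and WT libraries of Rbfox2 held the same values, both averages come down to its 5xFAD and N40K libraries. The match follows from that and is not a separate result. Mbnl2 averaged 0.00617 ± 0.000408 in 5xFAD carriers and 0.00533 ± 0.000516 in non-carriers (log2 change 0.16 ± 0.04 SE, limma adjusted p = 0.476).

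**Figure D4:**
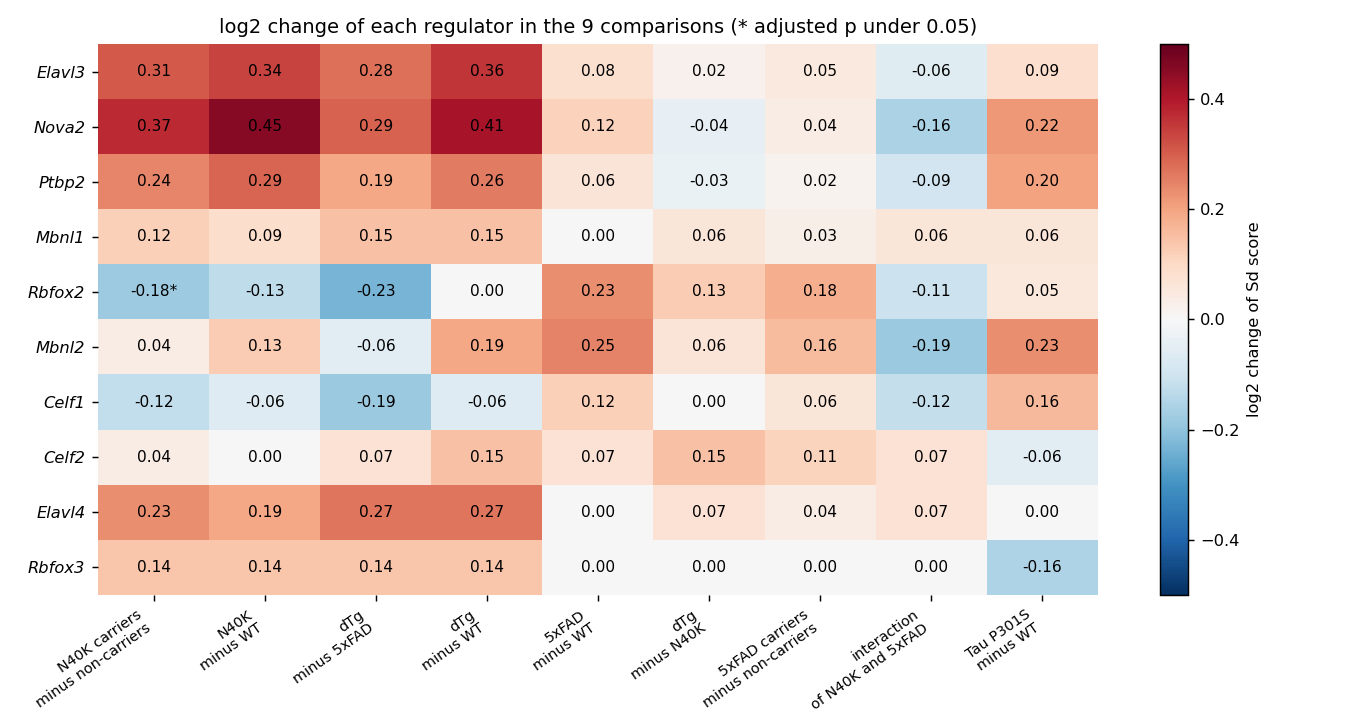
log2 change of the Sd score (colour and printed value) of each regulator (rows, by mean 6-month score) in the 9 comparisons (columns), with a star at an adjusted p under 0.05. The star stands at Rbfox2 in N40K carriers minus non-carriers (−0.18), and all 6-month columns share libraries with one another.

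The last comparison asked for the effect of mutant tau at 12 months. None of the 10 regulators passed in Tau P301S minus WT (limma; 1 of 15192 genes did, 0.00658%), and none had an unadjusted p under 0.05, against 8.28% of all genes. Mbnl2 had the smallest p, with 0.003, 0.004, 0.002, 0.003, 0.003 and 0.003 in Tau P301S libraries (lowest 0.002, median 0.003, highest 0.004), against 0.002, 0.003, 0.002 and 0.002 in WT libraries (log2 change 0.23 ± 0.11 SE, limma adjusted p = 0.615). The groups overlapped at 0.002 and 0.003, and in none of the 10 regulators were they separated, as in 1.28% of all genes.

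The regulators with the highest 12-month scores had intervals that leave room for a change in either direction. Ptbp2 ranged from 0.015 to 0.024 in Tau P301S libraries (median 0.017), against 0.013, 0.013, 0.018 and 0.02 in WT libraries (1.15-fold, 95% interval 0.885 to 1.49-fold). Celf1 ranged from 0.011 to 0.017 in Tau P301S libraries (median 0.013), against 0.01, 0.009, 0.014 and 0.014 in WT libraries (1.12-fold, 95% interval 0.887 to 1.41-fold). Nova2 ranged from 0.005 to 0.01 in Tau P301S libraries (median 0.007), against 0.004, 0.004, 0.008 and 0.009 in WT libraries (1.16-fold, 95% interval 0.832 to 1.62-fold). Rbfox3 was the member with the largest difference below 0, with 0.005 or 0.006 in each Tau P301S library against 0.005 to 0.008 in WT libraries (0.898-fold, 95% interval 0.754 to 1.07-fold). Elavl3 (log2 change 0.09), Mbnl1 (0.06), Rbfox2 (0.05), Elavl4 (0) and Celf2 (−0.06) lay closer to 0. The changes of the 10 had a median of 0.07 on the log2 scale, against −0.02 over all genes.

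In most regulators a split within the WT group was larger than the difference between genotypes. In 8 of the 10 regulators WT replicates 3 and 4 both lay above WT replicates 1 and 2, as in 45.7% of all genes. The exceptions were Mbnl1 and Mbnl2, the latter being the regulator of smallest p. The labels name no batch for these libraries, so no value within a batch can be given.

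**Figure D5:**
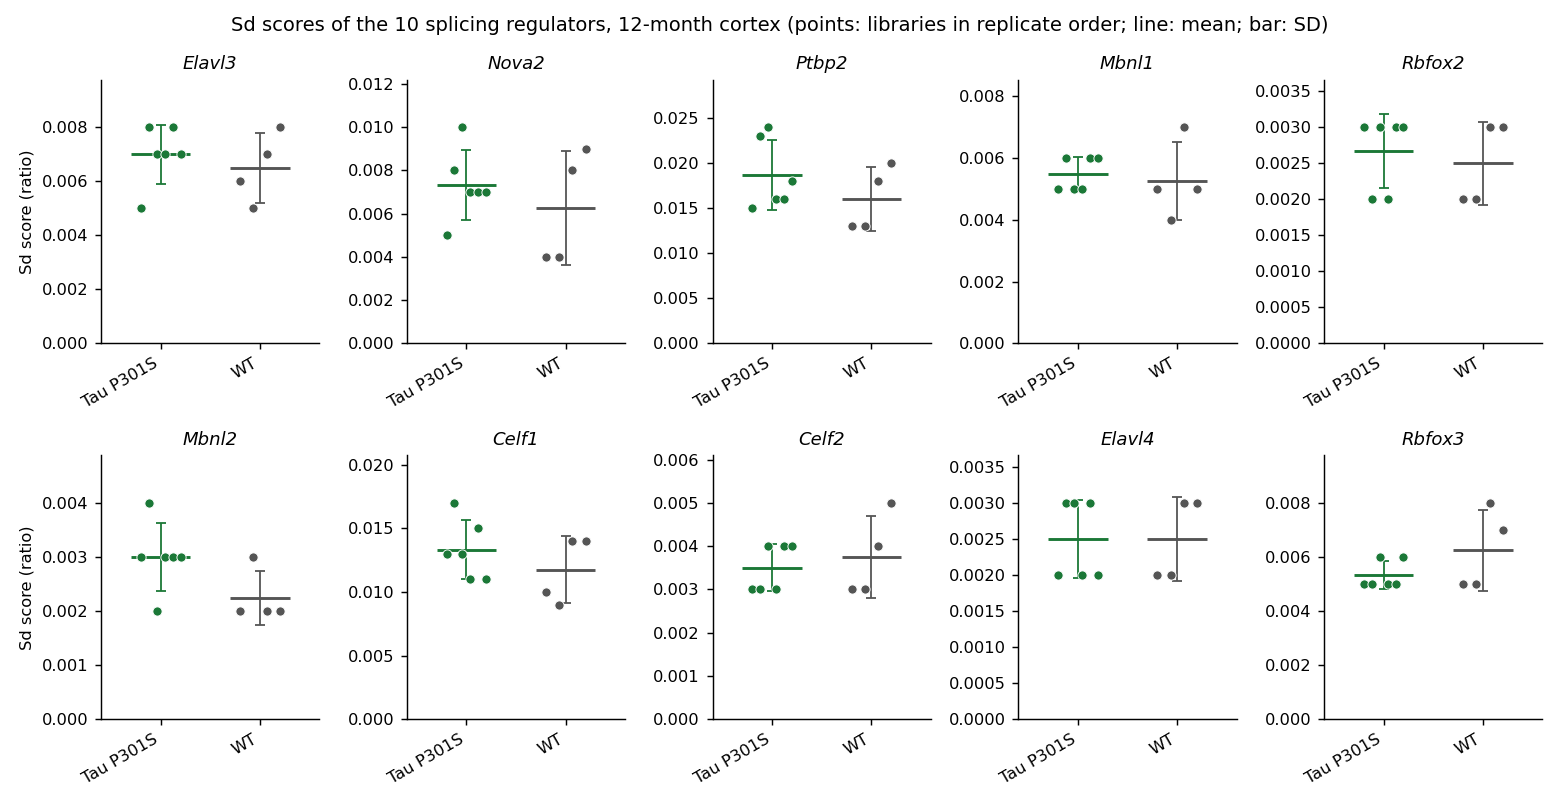
Sd score (vertical, a ratio, from 0) of each regulator in the 12-month libraries of Tau P301S (n = 6) and WT mice (n = 4), with points for libraries, lines for means and bars for the SD. The groups overlap in every panel, and in most panels the WT points fall into a lower pair (replicates 1 and 2) and a higher pair (replicates 3 and 4).

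The WT levels of the regulators were not ordered alike in the tables of both ages, which were made separately and hold different genes, so age and table cannot be told apart. Elavl3 had 0.0065 ± 0.00129 in 12-month WT libraries (n = 4) and 0.033 ± 0.00265 in 6-month WT libraries (n = 3; SD). Nova2 had 0.00625 ± 0.00263 at 12 months and 0.015 ± 0.00265 at 6 months. Rbfox3 went the other way, with 0.00625 ± 0.0015 at 12 months and 0.001 in all 6-month WT libraries, as did Celf1, with 0.0118 ± 0.00263 at 12 months and 0.00533 ± 0.000577 at 6 months. Ptbp2 had 0.016 ± 0.00356 at 12 months and 0.0133 ± 0.00208 at 6 months. The median of all genes per WT library was lower at 12 months (0.015 ± 0.00231) than at 6 months (0.0293 ± 0.000577). At 12 months the order over all 10 libraries was Ptbp2 (0.0176), Celf1 (0.0127), Nova2 (0.0069), Elavl3 (0.0068), Rbfox3 (0.0057), Mbnl1 (0.0054), Celf2 (0.0036), Mbnl2 (0.0027), Rbfox2 (0.0026) and Elavl4 (0.0025), and each neighbour overlapped the next in its range. Intronic length was set against the 6-month scores only, and at 12 months Celf1 lay above Nova2 and Elavl3, which have less intronic sequence.

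Other tissue-regulated splicing regulators were read from a list of 31 genes, of which 25 were scored at 6 months. In N40K carriers 3 of the 25 rose and none fell (limma; 10.8% of all genes rose and 0.936% fell), and 7 had an unadjusted p under 0.05, against 29.1% of all genes. Their median change was 0.1 on the log2 scale, against 0.09 over all genes. Nova1, the paralogue of Nova2, had 0.021, 0.025 and 0.018 in dTg and 0.022, 0.02 and 0.02 in N40K libraries, against 0.015, 0.015 and 0.014 in 5xFAD and 0.012, 0.012 and 0.014 in WT libraries (1.47-fold, limma adjusted p = 0.00659). Every carrier lay above every non-carrier.

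Khdrbs1, which encodes the RNA-binding protein Sam68, had 0.021, 0.028 and 0.023 in dTg and 0.025, 0.02 and 0.021 in N40K libraries, against 0.017, 0.018 and 0.015 in 5xFAD and 0.016, 0.015 and 0.016 in WT libraries (1.37-fold, limma adjusted p = 0.0127). Elavl2, a neuronal Hu protein gene and paralogue of Elavl3 and Elavl4, stood at 0.002 or 0.003 in carriers and at 0.001 in all non-carriers (1.38-fold, limma adjusted p = 0.00529), again 1 or 2 steps apart. All 3 passed in each of the 12 fits without a library and after centring. For Elavl2 the WT, 5xFAD and N40K libraries were each equal within their group (SD 0), at or below the pseudocount of 0.002. Rounding hid the spread of Elavl2, and leaving out libraries cannot show how far its call rests on that. Whether Nova1 and Nova2, or Elavl2 and Elavl3, differed in their response was not tested.

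The same list was read in the other comparisons. In dTg minus WT Nova1 (1.58-fold, limma adjusted p = 0.0279), Elavl2 (1.44-fold, 0.0248) and Khdrbs1 (1.46-fold, 0.0486) rose, as did 1.41% of all genes. Nova1 missed the threshold without WT replicate 1 (0.0924) or 2 (0.11), and Elavl2 without WT replicate 1 (0.0862), 2 (0.0926) or 3 (0.0623) and after centring (0.0531). Khdrbs1 missed it without each library other than N40K replicate 1 and dTg replicate 1, at adjusted p from 0.0569 to 0.154. In dTg minus 5xFAD Elavl2 rose (1.44-fold, limma adjusted p = 0.0385), as did 0.28% of all genes, and it missed the threshold without any WT or 5xFAD replicate or N40K replicate 2 or 3, at adjusted p from 0.0532 to 0.173, and after centring (0.0703). All 4 of these calls were lost in fits on the libraries of both groups alone (adjusted p from 0.108 to 0.178). None of the 25 passed in the other 5 comparisons at 6 months (limma). At an unadjusted p under 0.05 there were 7 in dTg minus WT (22.5% of all genes) and 7 in dTg minus 5xFAD (18.0%). There were 4 in N40K minus WT (18.9%), 2 in 5xFAD minus WT (4.39%) and 2 in the interaction (2.87%), and 0 in dTg minus N40K (5.14%) and the averaged 5xFAD comparison (6.17%). The median log2 change of the 25 was 0.205 in dTg minus 5xFAD, against 0.0965 over all genes. In dTg minus WT it was 0.121, against 0.107. None of the 26 scored at 12 months passed in Tau P301S minus WT (limma), and 0 had an unadjusted p under 0.05 (8.28% of all genes).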

How the data were processed

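The values deposited by the authors are Sd scores, each a linear ratio rounded to 3 decimals, in 1 table for each age. Per the submitters' processing notes, the mm9 build was used along with bedtools 2.16.1, BWA, STAR and CASAVA. How the score was computed, on which annotation and from how many reads is not given in the sources used here. Scores were analysed as log2(score + 0.002), 0.002 being the 5th percentile of all scores over 0 of either table, so folds include this pseudocount and understate changes of low scores. limma 3.58.1 in R 4.3.3 (1 term per group, default eBayes, 8 residual degrees of freedom per fit) was fitted on each whole table, with two-sided Benjamini-Hochberg adjustment over all its genes. The fit was also run on simulated scores that were not rounded and held changes larger than any seen in the regulators. That run cannot speak for calls that rest on 1 step of the last decimal. Libraries were left uncentred in the reported fits. Intronic length is the gene span minus all annotated exons in GENCODE M21, matched by Ensembl identifier for 94.9% of genes. It is on another build than the scores, so no coordinates are given. No splice-site or protein sequence was used here.

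The rule for named genes was to name all 10 regulators, with values by library for those called and, where none was, for the one of smallest p. Of the longer list of 31 splicing regulators, only genes that passed are named. Elavl3, Ptbp2 and others described beyond this rule were chosen after their values were seen. The members, lists, tests and alternatives were chosen with earlier results of these data known. Alternatives were other pseudocounts, centring, an eBayes trend, a minimum mean score of 0.02, leaving out libraries, a replicate block, fits on the compared groups alone and, added last, a square root scale.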

Additional observations from a re-analysis of the deposited data

Results flagged for a closer look

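At 12 months 2 values stood apart from the rest of their group by Dixon's test, among 20 groups of 4 or 6 libraries examined. The test is made for unrounded values, and these groups spanned 3 steps (Elavl3) and 1 step (Mbnl2) of 0.001, so its usual chance rate does not hold here. Elavl3 had its lowest Tau P301S score in replicate 1 (0.005, against 0.007 to 0.008 in the other Tau P301S libraries). Mbnl2 had its highest WT score in replicate 2 (0.003, against 0.002 in the other WT libraries), which is 1 step of the last decimal. Any lone value 1 step off from otherwise equal libraries would be marked.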

How the results depend on the processing

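In N40K carriers minus non-carriers the count of regulators called was 1 as reported. It ranged from 0 to 3 over the 12 fits that each left out a library and was 0 in 8 of them. It was 0 with a mean score of at least 0.02 (1 regulator left to test), 0 with the replicate block, 0 on the square root scale (chosen after seeing the data) and 0 without both libraries of highest median. It was unchanged with either other pseudocount, with centring and with the eBayes trend. In the other 8 comparisons it was 0 under every alternative run. The 12-month filter on low scores left no regulator to test. Centring turned the N40K change of Mbnl1 (−0.018), Mbnl2 (−0.099) and Celf2 (−0.098) below 0.

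The count over all genes was 1838 in the N40K carriers, 832 with the minimum score, 889 with the replicate block and 749 without both libraries of highest median, and 813 to 2352 without single libraries. Over all alternatives it ran from 0 to 524 in N40K minus WT (28 as reported), 0 to 296 in dTg minus 5xFAD (49) and 30 to 710 in dTg minus WT (247). It ran from 0 to 27 in 5xFAD minus WT (3), 0 to 34 in dTg minus N40K (3), 0 to 38 in the averaged 5xFAD comparison (7), 0 to 22 in the interaction (3) and 0 to 5 in Tau P301S minus WT (1). The cause was not tested.

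Libraries with the same replicate number did not deviate together (r from −0.2 to 0.07 over 18 pairs at 6 months and from −0.27 to 0.19 over 4 pairs at 12 months), so no pairing by number was seen. Pairs with different numbers ran from −0.14 to 0.16 over 36 pairs at 6 months and from −0.24 to 0.32 over 20 pairs at 12 months. A shared batch was not tested. With the replicate block Rbfox2 had an adjusted p of 0.051, and Nova1, Elavl2 and Khdrbs1 missed the threshold in dTg minus WT and Elavl2 in dTg minus 5xFAD. Steps of 0.001 limit what can be seen in the regulators scored under 0.01.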
